A study of Mus musculus with 16 samples.

Results

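All 16 of the 16 bulk RNA sequencing libraries entered the comparison of an antibody against PD-1 with control IgG over all radiation doses. The 8 libraries titled PD-1 were set against the 8 titled IgG, and the difference was taken within each dose and then averaged with equal weight over the 3 doses. The groups were IgG at 0 Gy (3 libraries), 4 Gy (2) and 8 Gy (3), and anti-PD-1 at 0 Gy (2), 4 Gy (3) and 8 Gy (3). All came from lungs of C57BL/6 mice that bore HKP1 tumours, a transplanted mouse lung adenocarcinoma line, and the labels give 24 to 48 hours after irradiation as the time of harvest for every library, those at 0 Gy included. Each library pooled 3 to 4 mice, and lungs were ground, so RNA of tumour, resident lung and immune cells was measured together. The labels do not give the clone, amount or schedule of the antibodies. They do not say how mice were divided among the pools, so p-values measure only the spread between these pools.

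PD-1, encoded by Pdcd1, is an inhibitory receptor that activated T cells put on their surface. Its ligands PD-L1 (Cd274) and PD-L2 (Pdcd1lg2) are carried by tumour cells, macrophages and dendritic cells, and their binding damps signalling through the T cell receptor. Antibodies that block PD-1 are used to release T cells from this restraint in lung cancer. The title of the series ties the study to club cells, the Scgb1a1-bearing secretory cells of the airway, and to radiation combined with checkpoint blockade.

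Levels are CPM, read counts scaled to the size of the library, and differences are anti-PD-1 minus IgG in log2(CPM + 0.5), given ± SE. A gene was called when limma's Benjamini-Hochberg adjusted p over 17546 tested genes was under 0.05. Lung markers were present in every library: Sftpc, the surfactant gene of alveolar type 2 cells, ran from 442 to 8848 CPM. The worth of 1 read ran from 0.0155 to 0.0418 CPM. Replicates 2 and 3 of anti-PD-1 at 4 Gy stood apart: they lay at 81.5 and 98.3 on the first principal component (46.7% of the variance) against -51.9 to 46.8 for the other 14 libraries, and 6086 and 5315 genes had no reads in them against 2273 to 3851 elsewhere. Fits without this pair hold 1 anti-PD-1 library at 4 Gy, so lost replication and the outlying values cannot be told apart in them. The S numbers in the titles ran from 13 to 17 at 0 Gy and from 26 to 36 at the other doses, with IgG before anti-PD-1 within each dose, so this order and the antibody cannot be told apart. In a typical gene, 35.9% of the sum of squares lay between doses, 4.64% between antibodies averaged over doses, 14.3% in the antibody difference varying with dose and 34.8% between libraries of a group (medians over genes).

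The averaged difference called 41 genes, 0.234% of those tested: 29 were higher with anti-PD-1 (0.165%) and 12 lower (0.0684%). The largest falls were those of Dcstamp, Pla2g2d and Ccl17, and the largest rise with a known protein was that of Sphk1. Of the 41, only Ccl17, Il1rn, Egr2 and Tcap belong to any of the 48 gene lists. Adjusted p-values ran from 0.0374 to 0.0488, close to the threshold. At an unadjusted p under 0.05 stood 3353 genes (19.1%), 2373 of them higher (13.5%) and 980 lower (5.59%). The median difference over all tested genes was 0.01, and 52.3% of genes lay above 0. The 41 calls depended on single libraries: 12 of the 16 fits that left out 1 library called 0 genes, and so did the fit without both outlying libraries. The fits without IgG 0 Gy replicate 2, IgG 0 Gy replicate 3, anti-PD-1 4 Gy replicate 1 and anti-PD-1 8 Gy replicate 1 called 49, 1316, 919 and 470 genes. In each of these 16 fits all 41 genes kept their direction. The fits reused libraries in which the 41 had been selected, so this is a description and no separate support. With quantile normalization 27 genes were higher and 25 lower, and with library medians set equal 25 were higher and 27 lower, so the split of the calls depended on the scaling.

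**Figure D1:**
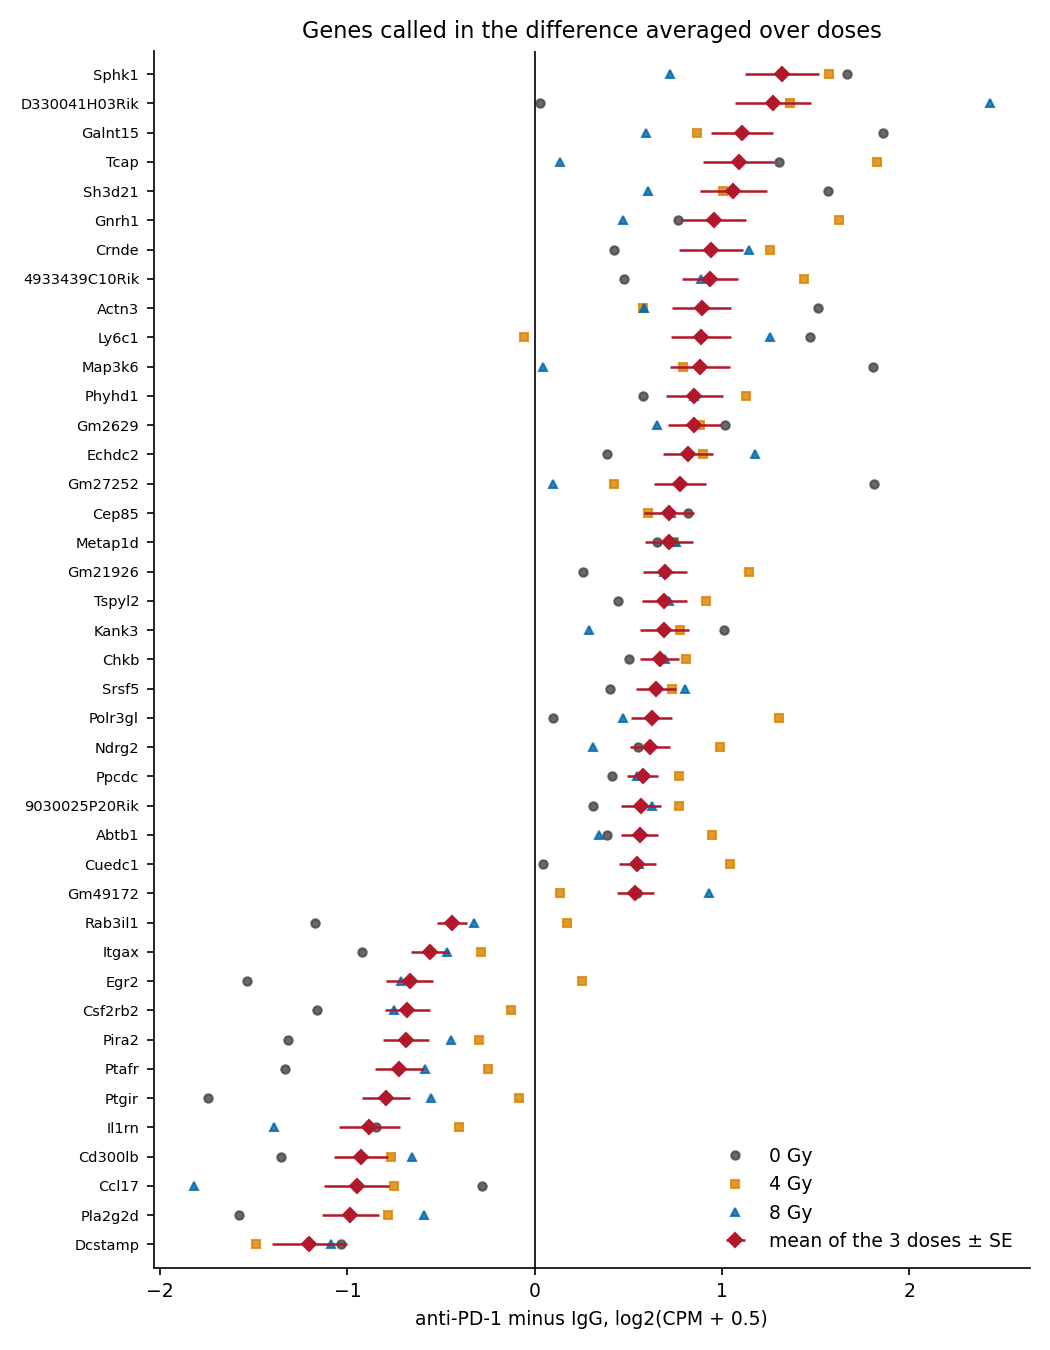
Differences of the 41 genes called in the averaged comparison. The horizontal axis is anti-PD-1 minus IgG in log2(CPM + 0.5); diamonds with bars are the mean of the 3 doses ± SE, and circles, squares and triangles are the differences at 0, 4 and 8 Gy. Of the 41 genes 38 have the same sign at all 3 doses, and many of the 12 lower genes lie farthest from 0 at 0 Gy.

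Among the genes that fell, Dcstamp had the largest averaged difference. It encodes a membrane protein needed for the fusion of macrophages and osteoclasts into giant cells and lies on chromosome 15 (mm10, 39745930 to 39760938). The IgG pools held 2.48, 2.47 and 1.26 CPM at 0 Gy, 2.29 and 4.22 at 4 Gy and 2.87, 3.89 and 3.49 at 8 Gy. The anti-PD-1 pools held 0.534 and 0.935 CPM at 0 Gy, 1.53, 0.752 and 0.351 at 4 Gy and 1.41, 1.07 and 1.55 at 8 Gy. The anti-PD-1 libraries lay below every IgG library of their dose at 0, 4 and 8 Gy. The averaged difference was -1.20 ± 0.20, with a limma adjusted p of 0.0374.

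Pla2g2d, a secreted phospholipase made by dendritic cells and macrophages that resolves inflammation (chromosome 4, 138775735 to 138782046), showed the same separation at every dose. Its IgG levels were 12.4, 13.7 and 10.9 CPM at 0 Gy, 5.86 and 6.61 at 4 Gy and 9.31, 6.43 and 8.45 at 8 Gy, against 4.71 and 3.03 CPM at 0 Gy, 2.93, 5.02 and 2.65 at 4 Gy and 5.12, 6.37 and 4.08 at 8 Gy with anti-PD-1. The averaged difference was -0.99 ± 0.15 (limma adjusted p = 0.0374), and the gap was widest at 0 Gy, where the difference was -1.58 ± 0.27. Of all tested genes, 95 (0.541%) lay without overlap in 1 direction at all 3 doses, 70 above IgG and 25 below. Of the 41 called genes 13 did so, 11 above and 2 below, the latter being Dcstamp and Pla2g2d. The 41 were selected on the average of the same libraries, so this count is a description.

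Ccl17, a chemokine of dendritic cells that attracts T cells bearing CCR4 (chromosome 8, 94810453 to 94812036), differed most after 8 Gy. There the IgG pools held 23.4, 31.5 and 25.3 CPM and the anti-PD-1 pools 6.78, 7.26 and 7.42 CPM, a difference of -1.82 ± 0.28. At 0 Gy the levels were 14.3, 15.6 and 17.1 CPM with IgG and 12.9 and 12.7 CPM with anti-PD-1, and at 4 Gy 10.98 and 24.98 CPM against 14.1, 9.91 and 6.45 CPM. The groups did not overlap at 0 and 8 Gy and overlapped at 4 Gy. Averaged, Ccl17 fell by 0.95 ± 0.17 (limma adjusted p = 0.0379). Il1rn, the natural antagonist of the interleukin-1 receptor, also differed most after 8 Gy, from 122, 129 and 121 CPM to 58.03, 46.6 and 38.003 CPM, and its averaged difference was -0.88 ± 0.16 (limma adjusted p = 0.0451).

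The other 8 genes that fell differed most at 0 Gy. Itgax, the integrin CD11c of dendritic cells and alveolar macrophages, was the most abundant of them. At 0 Gy it stood at 334, 283 and 336 CPM with IgG and 161 and 172 CPM with anti-PD-1, and at 8 Gy at 344, 335 and 308 CPM and 254, 257 and 204 CPM, without overlap at either dose. At 4 Gy the levels of 303 and 408 CPM with IgG and 367, 250.3 and 261 CPM with anti-PD-1 overlapped, and the averaged difference was -0.56 ± 0.10 (limma adjusted p = 0.0374). Ptgir, the prostacyclin receptor, went from 17.3, 16.5 and 16.6 CPM to 4.44 and 4.90 CPM at 0 Gy, and Ptafr, the receptor of platelet-activating factor, from 38.4, 39.9 and 40.6 CPM to 14.6 and 16.3 CPM. Csf2rb2, a beta chain of the mouse interleukin-3 receptor, went from 93.8, 87.3 and 89.8 CPM to 33.9 and 47.3 CPM. The averaged differences of these receptors were -0.79 ± 0.13, -0.72 ± 0.13 and -0.68 ± 0.12. The activating receptors Cd300lb and Pira2 of myeloid cells had -0.93 ± 0.14 and -0.69 ± 0.12.

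Egr2, a transcription factor of activated lymphocytes and alveolar macrophages, and Rab3il1, an exchange factor of Rab proteins, had averaged differences of -0.67 ± 0.12 and -0.44 ± 0.08, but their difference at 4 Gy was above 0. Egr2 stood at 19.2 and 21.3 CPM with IgG and 25.3, 26.6 and 21.1 CPM with anti-PD-1 at 4 Gy, against 23.7, 19.9 and 30.3 CPM and 8.75 and 7.38 CPM at 0 Gy. Of the 12 genes that fell, 12 lay below IgG without overlap at 0 Gy (11.7% of all genes did), 2 at 4 Gy (25.8%) and 11 at 8 Gy (5.94%). Tested dose by dose, 8 of the 12 were called lower at 0 Gy (0.154% of all genes were) and 1 at 4 Gy (8.57%). These genes were selected for a lower average, so the counts are a description.

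Sphk1 had the largest averaged rise. It encodes sphingosine kinase 1, which makes the signalling lipid sphingosine-1-phosphate, and lies on chromosome 11 (116530925 to 116536674), where an annotated gene on the opposite strand overlaps it. IgG pools held 10.7, 13.9 and 13.9 CPM at 0 Gy, 10.9 and 9.30 at 4 Gy and 5.37, 3.66 and 3.61 at 8 Gy. Anti-PD-1 pools held 37.5 and 46.3 CPM at 0 Gy, 23.5, 30.2 and 41.2 at 4 Gy and 3.73, 8.22 and 11.7 at 8 Gy. The groups were apart at 0 and 4 Gy and overlapped at 8 Gy, where replicate 1 of anti-PD-1 lay among the IgG pools. The averaged difference was 1.32 ± 0.20 (limma adjusted p = 0.0374).

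Map3k6, a stress-activated kinase of the ASK family, differed at 0 and 4 Gy and hardly at 8 Gy. Its levels at 0 Gy were 11.8, 7.81 and 16.5 CPM with IgG and 33.6 and 51.4 CPM with anti-PD-1, and at 4 Gy 10.9 and 9.35 CPM against 14.99, 20.4 and 18.4 CPM. At 8 Gy the 2 arms held 8.62, 7.80 and 6.85 CPM against 5.98, 8.85 and 9.57 CPM and overlapped. The averaged difference was 0.88 ± 0.16 (limma adjusted p = 0.0374). Galnt15, an enzyme that starts O-linked glycosylation, had 1.86 ± 0.30 at 0 Gy and 1.11 ± 0.17 on average. Ly6c1, a surface protein of endothelial cells and some lymphocytes whose sequence is close to that of Ly6c2, so that reads may be shared, rose by 0.89 ± 0.16 on average. Its levels of 139 and 142 CPM with IgG and 91.8, 133 and 199.9 CPM with anti-PD-1 overlapped at 4 Gy, and the anti-PD-1 pools lay above IgG at 0 and 8 Gy.

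Several genes with smaller averaged rises lay above IgG at every dose. Echdc2, a mitochondrial protein related to enoyl-CoA hydratases, held 36.6, 30.4 and 30.5 CPM at 0 Gy, 20.8 and 21.5 at 4 Gy and 13.8, 9.94 and 13.5 at 8 Gy with IgG, against 43.02 and 41.8 CPM at 0 Gy, 40.2, 35.9 and 43.6 at 4 Gy and 18.7, 31.4 and 38.7 at 8 Gy with anti-PD-1. Ppcdc, an enzyme of coenzyme A synthesis, held 31.4, 31.1 and 33.7 CPM at 0 Gy, 21.7 and 18.4 at 4 Gy and 18.8, 17.1 and 17.4 at 8 Gy with IgG and 40.98 and 44.7 CPM at 0 Gy, 31.4, 34.6 and 37.8 at 4 Gy and 22.04, 27.7 and 29.4 at 8 Gy with anti-PD-1. Both lay above IgG without overlap at every dose, and their averaged differences were 0.82 ± 0.13 and 0.58 ± 0.08 (limma adjusted p = 0.0374 for each). Metap1d, a mitochondrial methionine aminopeptidase, had 0.65 ± 0.23, 0.74 ± 0.23 and 0.75 ± 0.21 at 0, 4 and 8 Gy. Chkb, choline kinase beta, and Srsf5, a splicing factor, had averaged differences of 0.67 ± 0.10 and 0.65 ± 0.11. Of the 29 genes that rose, 22 lay above IgG without overlap at 0 Gy (10.7% of all genes did), 27 at 4 Gy (27%) and 20 at 8 Gy (17.6%). The 29 were selected for a higher average in these libraries, so the counts are a description.

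Reads of several called genes cannot be assigned to 1 strand. Of the 41, 12 overlap an annotated gene on the opposite strand. D330041H03Rik, a non-coding transcript antisense to Abca3, the lipid transporter of alveolar type 2 cells, had the second largest rise, with an averaged difference of 1.27 ± 0.20. It was also the single gene called at 8 Gy (0.0057% of those tested), where it stood at 5.81, 4.84 and 4.32 CPM with IgG and 19.1, 35.8 and 35.2 CPM with anti-PD-1.

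Pdcd1 itself did not pass the test. With IgG it stood at 28.999, 23.6 and 41.6 CPM at 0 Gy, 14.9 and 10.1 at 4 Gy and 24.1, 33.9 and 39.99 at 8 Gy. With anti-PD-1 it stood at 64.999 and 23.4 CPM at 0 Gy, 13.05, 32.1 and 35.8 at 4 Gy and 33.6, 51.9 and 23.6 at 8 Gy. The arms overlapped at every dose, and the averaged difference was 0.48 ± 0.27 (limma adjusted p = 0.338) with all libraries and 0.18 ± 0.27 without the outlying ones. An antibody acts on the protein, so these levels are no check of the treatment.

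The ligand Cd274 lay below IgG at 0 Gy only, with 54.3, 55.4 and 63.9 CPM against 27.5 and 32.3 CPM. At 4 Gy it held 76.6 and 74.1 CPM with IgG and 78.7, 75.6 and 112 CPM with anti-PD-1, and at 8 Gy 87.3, 109 and 85.04 CPM against 106, 106 and 73.1 CPM, both overlapping. The difference at 4 Gy exceeded that at 0 Gy by 1.15 ± 0.28 (limma interaction term, adjusted p = 0.0398). Averaged, Cd274 had -0.24 ± 0.11 (limma adjusted p = 0.255), and Pdcd1lg2 had -0.38 ± 0.17 (limma adjusted p = 0.242). The spans of both ligand genes overlap an annotated gene on the opposite strand.

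Genes of monocytes and macrophages lay mostly below IgG on average. Of 21 tested, 2 had an averaged difference above 0, and 10 were lower at an unadjusted p under 0.05, against 5.59% of all genes. None passed the adjusted test in the averaged comparison. The list's median was -0.40, against 0.01 for all genes, with -0.56 at 0 Gy, -0.14 at 4 Gy and -0.23 at 8 Gy. Without the outlying libraries 2 of 21 lay above 0 and the averaged median was -0.19. In these ground lungs, fewer cells of a type and less RNA per cell cannot be told apart.

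Cd68, the lysosomal marker of macrophages, held 297, 386 and 225 CPM with IgG and 119.9 and 116 CPM with anti-PD-1 at 0 Gy. At 4 Gy the values were 194 and 277 CPM against 259, 153 and 198 CPM, and at 8 Gy 406, 257 and 248 CPM against 223, 215 and 237 CPM. The arms separated at 0 Gy and, by a narrow gap, at 8 Gy. Its averaged difference was -0.65 ± 0.15 (limma adjusted p = 0.064). Csf1r, the receptor of the macrophage growth factor, was called lower at 0 Gy, where it held 315, 284 and 377 CPM with IgG and 177 and 155 CPM with anti-PD-1 (-0.96 ± 0.18, limma adjusted p = 0.043; 0.274% of genes were called at this dose). Averaged it had -0.40 ± 0.10 (limma adjusted p = 0.0725), with a difference of 0.20 ± 0.18 at 4 Gy. Lyz2, lysozyme of macrophages and neutrophils, averaged -0.47 ± 0.12.

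**Figure D2:**
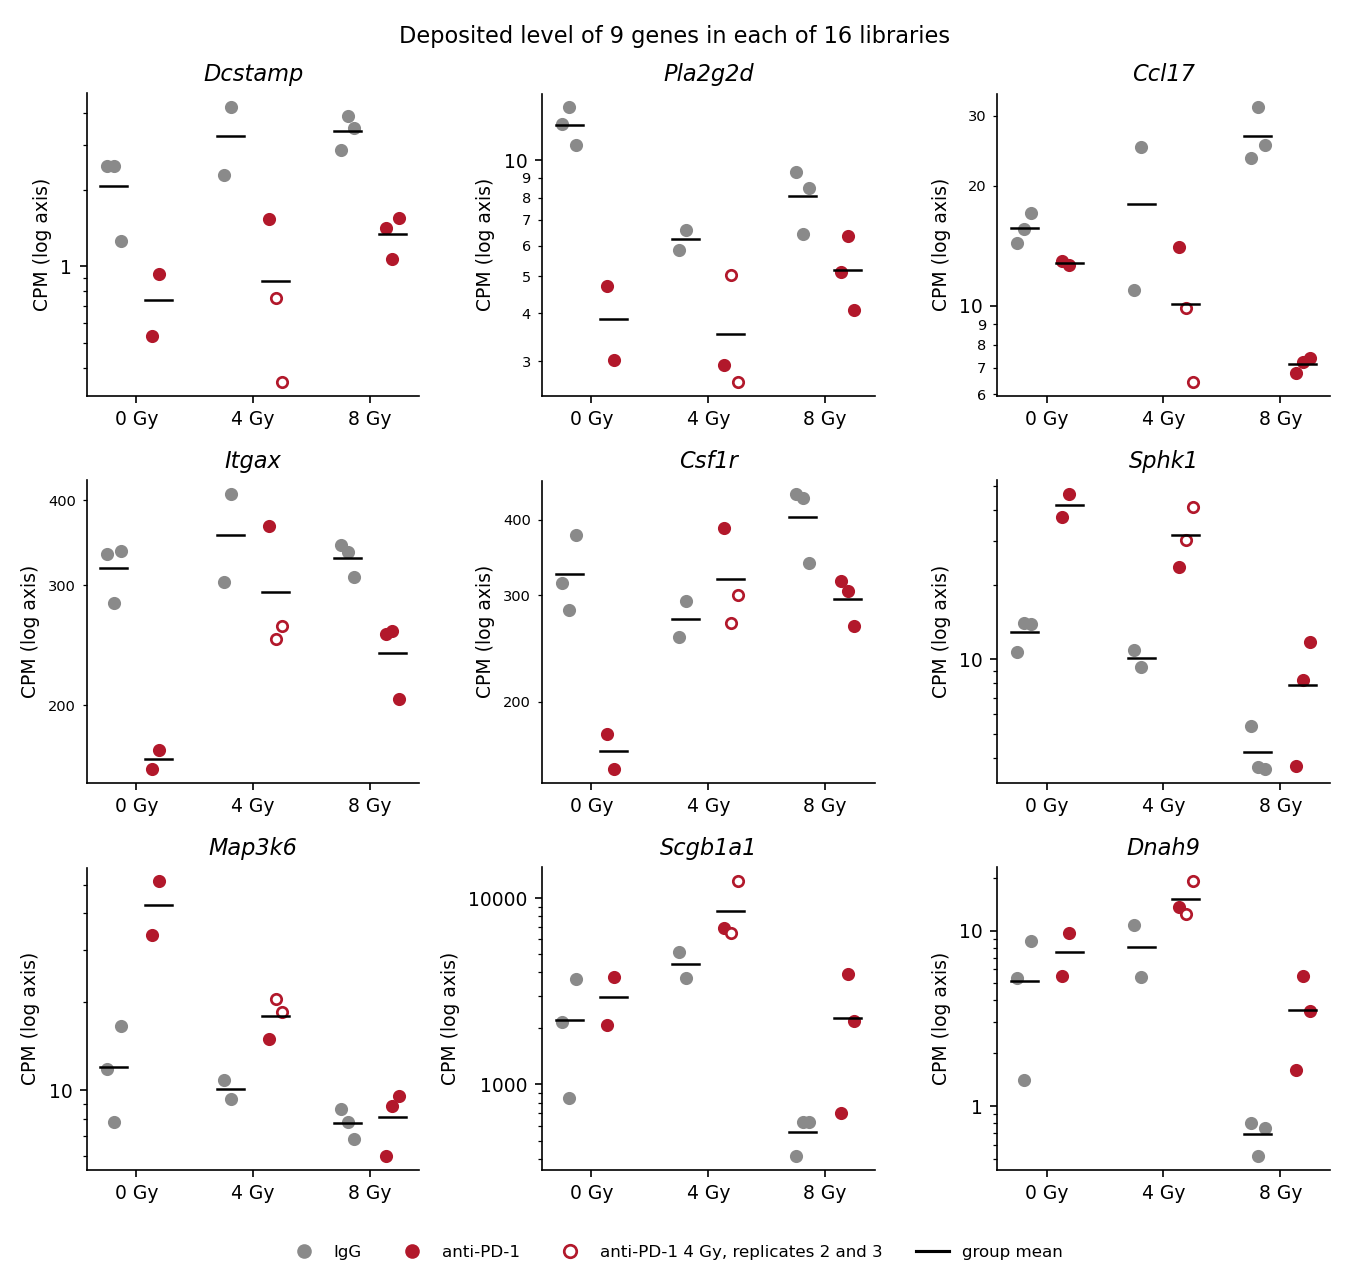
CPM of 9 genes in each of the 16 libraries, on log axes, by dose and antibody; horizontal lines are group means and open symbols the 2 anti-PD-1 libraries at 4 Gy that stood apart. Dcstamp and Pla2g2d separate at every dose, Ccl17 most at 8 Gy, Itgax and Csf1r most at 0 Gy, and Scgb1a1 and Dnah9 most at 8 Gy.

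The list of immunosuppressive and type 2 myeloid genes had 3 of 15 above 0 (median -0.35), with 6 lower at an unadjusted p under 0.05 (5.59% of all genes) and 0 called. At 4 Gy 9 of 15 lay above 0, with a median of 0.09. Ccl24, an eosinophil attractant made by alternatively activated macrophages, led it after 8 Gy. There it stood at 151, 137 and 74.1 CPM with IgG and 36.6, 39.4 and 31.1 CPM with anti-PD-1. At 0 Gy the levels were 13.3, 8.34 and 18.7 CPM against 5.95 and 6.89 CPM, and the averaged difference was -1.03 ± 0.21 (limma adjusted p = 0.0545). Mgl2, a lectin of type 2 macrophages and dendritic cells, averaged -0.99 ± 0.21 (limma adjusted p = 0.0545), and Arg1, arginase 1, -0.35 ± 0.23 (limma adjusted p = 0.42).

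Of 16 inflammatory cytokine genes tested, 3 were above 0 on average (median -0.25), and Il1rn, called lower, belongs to this list. Il1b, interleukin-1 beta, separated at 8 Gy only, with 132, 165 and 158 CPM under IgG and 45.05, 59.7 and 58.03 CPM under anti-PD-1, a difference of -1.48 ± 0.23 (limma adjusted p = 0.0626). Averaged it had -0.47 ± 0.14 (limma adjusted p = 0.106). Of 15 dendritic cell genes 4 lay above 0 (median -0.13), and of 7 Fc receptor genes 2 (median -0.17). In both of these lists the median at 4 Gy was above 0, at 0.13 and 0.08.

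Airway genes lay on the other side of IgG. All 16 tested genes of ciliated cells had an averaged difference above 0, with a median of 0.88, and 12 of them were higher at an unadjusted p under 0.05, against 13.5% of all genes. The same count of 16 held with quantile normalization, with library medians set equal, and in each fit that left out 1 library. None was called in the averaged comparison and 3 were called at 4 Gy, where 15.5% of all genes were called. The medians were 0.34, 1.02 and 1.03 at 0, 4 and 8 Gy.

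Foxj1, the master transcription factor of motile cilia, held 26.4, 9.01 and 30.1 CPM with IgG and 19.2 and 26.4 CPM with anti-PD-1 at 0 Gy. At 4 Gy it held 50.5 and 28.4 CPM against 62.8, 82.8 and 112 CPM, and at 8 Gy 4.55, 5.32 and 5.42 CPM against 7.43, 23.7 and 21.6 CPM. The arms overlapped at 0 Gy and not at 4 or 8 Gy, and the averaged difference was 0.96 ± 0.28 (limma adjusted p = 0.101). Dnah9, a dynein heavy chain of the outer arms, averaged 1.09 ± 0.31 and at 8 Gy stood at 0.798, 0.520 and 0.754 CPM with IgG against 1.60, 5.53 and 3.49 CPM with anti-PD-1. Cfap126, which organizes basal bodies, averaged 0.82 ± 0.23, and Dynlrb2, a dynein light chain, 1.04 ± 0.31.

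Factors of the RFX family switch on cilium genes together with Foxj1. RefSeq promoters (GRCm38.p6) were found for 12 of the 16 ciliated cell genes. Their 250 bases before the start were searched on both strands for GTTGCC, the core of the RFX half-site. It was present in 5 of the 12 (41.7%), against 10.8% of the 11848 tested genes with a promoter. Dynlrb2 is shown as a leading member and Sntn, which encodes a protein of the cilium tip, because it was chosen for its match after the values were seen (averaged difference 0.62). The capitals mark the motif, and both sequences are written 5′ to 3′ on the plus strand.
Dynlrb2 (chr8:116504934-116504999): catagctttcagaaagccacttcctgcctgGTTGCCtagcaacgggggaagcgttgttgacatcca
Sntn (chr14:13670780-13670845): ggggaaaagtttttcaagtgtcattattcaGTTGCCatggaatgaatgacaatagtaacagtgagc
A match of 6 letters describes the window and is not a bound site.

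Of 15 club cell genes 14 lay above 0 (median 0.62), and 0 were called. At an unadjusted p under 0.05, 11 of the 15 were higher, against 13.5% of all genes. Scgb1a1, the secretoglobin that defines club cells, held 2170.4, 850.3 and 3668 CPM with IgG at 0 Gy, 5156 and 3712 at 4 Gy and 414, 632 and 628 at 8 Gy. With anti-PD-1 it held 2092 and 3778 CPM at 0 Gy, 6866, 6484 and 12303 at 4 Gy and 701, 3891 and 2199 at 8 Gy. The arms overlapped at 0 Gy, and every anti-PD-1 library lay above every IgG library at 4 and at 8 Gy. The spread within a group was wide, as the 3 anti-PD-1 libraries at 8 Gy show. The averaged difference of 1.07 ± 0.35 had a limma adjusted p of 0.131. The exact two-sided permutation test within doses (2000 arrangements, smallest possible p 0.0005) gave 0.018, or 0.36 adjusted over the 20 single genes tested that way.

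Scgb3a2, a second secretoglobin, averaged 1.17 ± 0.33 (limma adjusted p = 0.092), and Gsta3, a glutathione transferase, 1.04 ± 0.34. Aldh1a1, a retinaldehyde dehydrogenase that club and other cells carry, is 1 of 4 club cell genes of 15 that lay below IgG on average at 4 Gy. It lay above IgG at 0 Gy (57.4, 55.6 and 60.1 CPM against 112 and 152 CPM) and at 8 Gy (31.3, 38.7 and 51.6 CPM against 61.3, 103 and 92.1 CPM). At 4 Gy it lay below, with 178 and 126 CPM under IgG and 101, 91.4 and 101 CPM under anti-PD-1, and the difference between 4 and 0 Gy was -1.78 ± 0.34 (limma interaction term, adjusted p = 0.0334).

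Other structural genes of the lung shared the direction. All 13 alveolar type 1 genes lay above 0 (median 0.47), with medians of 0.67, 0.12 and 1.17 at 0, 4 and 8 Gy. Ager, the receptor that marks these gas-exchange cells, held 37.1, 52.01 and 45.6 CPM with IgG and 60.8, 194 and 128 CPM with anti-PD-1 at 8 Gy, and averaged 0.68 ± 0.27. Hopx, a homeodomain cofactor, averaged 0.59 ± 0.19. All 8 genes of mesothelium, the lung's outer lining, lay above 0 on average (median 0.49), among them Upk1b with 0.89 ± 0.26 and Msln with 0.49 ± 0.15. At 4 Gy 5 of these 8 did. By contrast 7 of 13 alveolar type 2 genes lay above 0 on average (median 0.04), and Sftpc averaged 0.51 ± 0.35 (limma adjusted p = 0.443). Krt19 of the mesothelium list is also on the list of lung adenocarcinoma cell genes, of which 10 of 16 lay above 0 on average (median 0.10). None of these lists had a called gene in the averaged comparison.

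The level of these lists varied with the single pool as well as with the antibody. The mean level of the ciliated list, in log2(CPM + 0.5), was 2.85, 1.57 and 3.53 in the IgG pools at 0 Gy, 3.78 and 3.07 at 4 Gy and 1.28, 1.53 and 1.55 at 8 Gy. In the anti-PD-1 pools it was 2.68 and 3.54 at 0 Gy, 4.20, 4.01 and 4.64 at 4 Gy and 1.75, 3.17 and 2.66 at 8 Gy. The arms overlapped at 0 Gy and were apart at 4 and 8 Gy. Replicate 2 of IgG at 0 Gy and replicate 1 of anti-PD-1 at 8 Gy were the lowest of their groups in the ciliated and the club cell list. How much airway, lining and alveolar tissue entered each pool was not recorded in the labels, and its part in these differences was not tested.

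**Figure D3:**
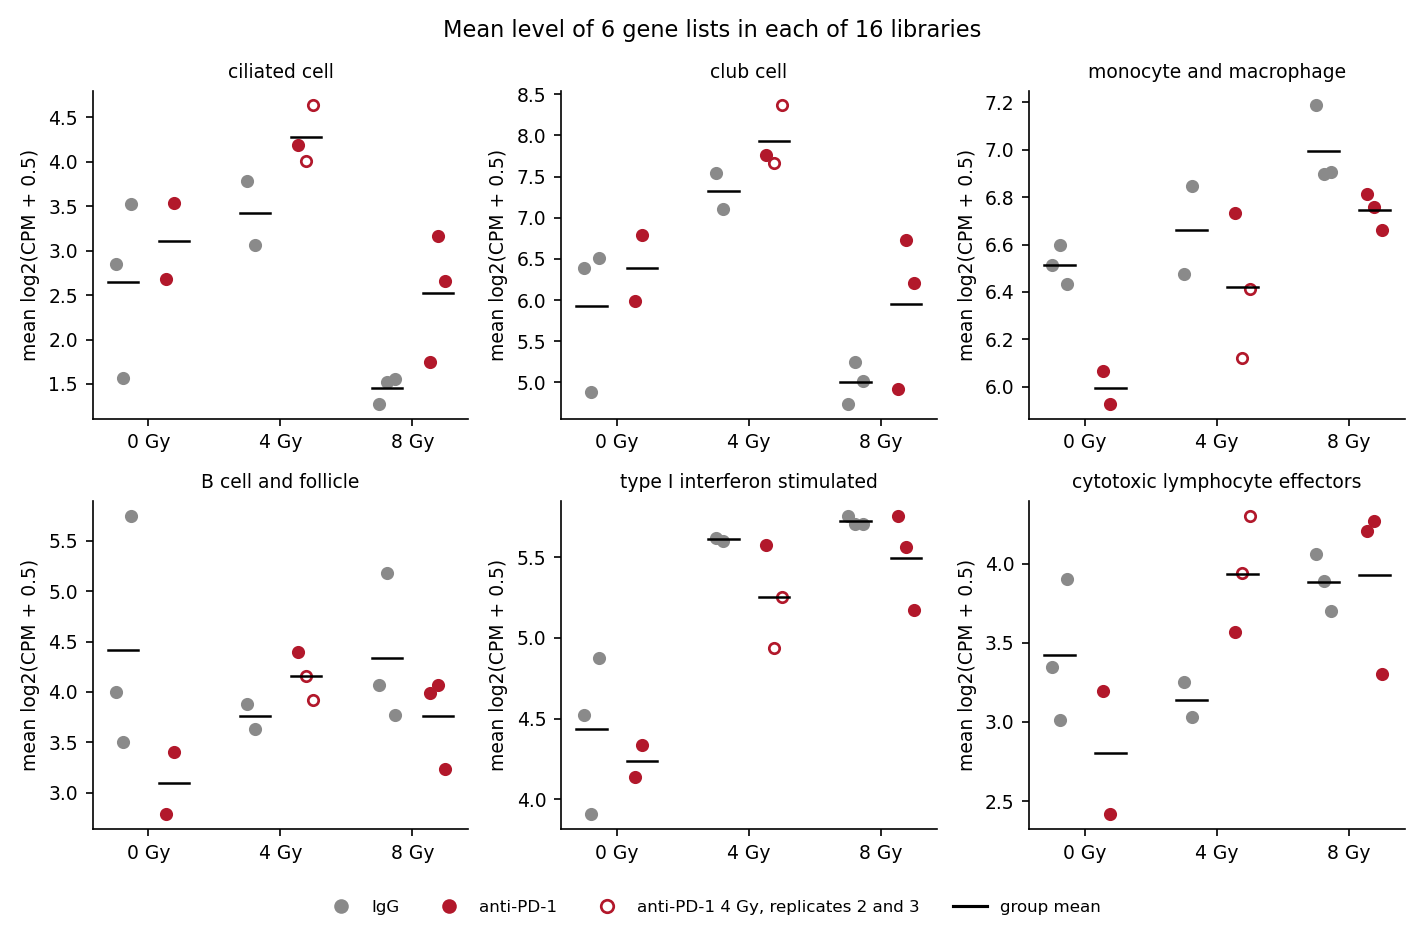
Mean level of 6 gene lists in each library, in log2(CPM + 0.5), by dose and antibody; lines are group means and open symbols the 2 outlying anti-PD-1 libraries at 4 Gy. Ciliated and club cell genes lie above IgG at 4 Gy, monocyte and macrophage genes below IgG at 0 and 8 Gy, and cytotoxic genes below IgG on average at 0 Gy and above it at 4 Gy.

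T cell genes had no common direction over the doses. Of 22 genes of the T cell receptor complex and its signalling, 1 was above 0 at 0 Gy (55% of all genes were), 20 at 4 Gy (48.4%) and 2 at 8 Gy (65.5%), with medians of -0.49, 0.63 and -0.22. On average 12 of 22 lay above 0 (median 0.01), 10 with quantile normalization, 9 with library medians set equal (median -0.02) and 9 without the outlying libraries. Of 17 cytotoxic effector genes, 1 lay above 0 at 0 Gy, 16 at 4 Gy and 9 at 8 Gy, with medians of -0.61, 0.80 and 0.01. The averaged median was 0.03, -0.02 with quantile normalization, and -0.01 both with library medians set equal and without the outlying libraries.

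Gzmb, the granzyme B of killer cells, held 19.7, 21.5 and 18.7 CPM with IgG and 15.8 and 8.57 CPM with anti-PD-1 at 0 Gy. At 4 Gy it held 22.4 and 19.9 CPM against 26.5, 31.1 and 51.99 CPM, and at 8 Gy 85.2, 35.1 and 36.6 CPM against 55.8, 51.4 and 31.1 CPM. It lay below IgG at 0 Gy, above it at 4 Gy and overlapped at 8 Gy, and the average was -0.04 ± 0.21 (limma adjusted p = 0.929). Ifng, interferon gamma, averaged 0.44 ± 0.36 with all libraries and 0.03 ± 0.33 without the outlying ones, in which it stood at 7.90 and 20.2 CPM. Cd8a, the co-receptor of cytotoxic T cells, averaged 0.07 ± 0.21, and -0.09 without those libraries.

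Foxp3, the transcription factor of regulatory T cells, was called higher at 4 Gy, with 9.25 and 9.03 CPM under IgG and 25.03, 18.6 and 15.8 CPM under anti-PD-1 (1.05 ± 0.27, limma adjusted p = 0.0343). Of all tested genes, 6.9% were called higher at that dose. At 0 and 8 Gy the arms overlapped, and the averaged difference was 0.43 ± 0.15 (limma adjusted p = 0.15). Several annotated genes overlap Foxp3, some on the opposite strand.

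Genes of T cell stemness and memory and of B cells lay mostly below IgG on average. Of 12 stemness and memory genes 2 were above 0 (median -0.41, and -0.17 without the outlying libraries). Ccr7, the homing receptor of naive T cells and migrating dendritic cells, held 24.1, 27.999 and 40.1 CPM with IgG and 15.7 and 14.2 CPM with anti-PD-1 at 0 Gy, and 24.4, 33.2 and 24.3 against 14.9, 16.9 and 12.5 CPM at 8 Gy. At 4 Gy its 17.2 and 26.5 CPM with IgG and 25.9, 16.3 and 16.3 CPM with anti-PD-1 overlapped, and the averaged difference was -0.67 ± 0.15 (limma adjusted p = 0.0593). Tcf7, a transcription factor of naive and stem-like T cells, averaged -0.45 ± 0.17, and -0.23 ± 0.16 without the outlying libraries.

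None of 15 tested B cell and follicle genes lay above 0 on average (median -0.53), and 0 were called. Of the 15, 2 were lower at an unadjusted p under 0.05, against 5.59% of all genes. The doses differed: the medians were -1.42 at 0 Gy, 0.37 at 4 Gy and -0.59 at 8 Gy. Ms4a1, which encodes CD20, ran from 5.15 to 29.5 CPM in the IgG libraries and from 1.87 to 10.8 CPM in the anti-PD-1 libraries, and averaged -0.88 ± 0.42 (limma adjusted p = 0.267). The mean level of the list was highest in replicate 3 of IgG at 0 Gy (5.75, against 4.00 and 3.50 in the others of that group). Leaving that library out gave 3 of 15 above 0 and a median of -0.25. Blnk, an adaptor of the B cell receptor, averaged -0.69 ± 0.16, and Cd22, an inhibitory lectin of B cells, -0.55 ± 0.19.

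Type I interferon stimulated genes lay mostly below IgG on average. Of 31 type I genes 4 lay above 0 on average (median -0.22). Below IgG on average at all 3 doses lay 14 of them (9.7% of all genes did). At an unadjusted p under 0.05, 7 were lower, against 5.59% of all genes. None was called on average. Without the outlying libraries 6 of 31 lay above 0 and the median was -0.14. Ifit1, which binds viral RNA, held 8.20, 7.75 and 9.42 CPM with IgG and 5.42 and 7.62 CPM with anti-PD-1 at 0 Gy, 36.001 and 38.4 against 26.4, 12.6 and 10.6 CPM at 4 Gy and 41.5, 41.2 and 44.9 against 43.6, 29.9 and 21.4 CPM at 8 Gy. It was called lower at 4 Gy (-1.25 ± 0.33, limma adjusted p = 0.0343), where 8.57% of all genes were. Its 12.6 and 10.6 CPM at that dose came from the outlying libraries. The averaged differences of Ifit1 and of Rsad2, the antiviral enzyme viperin, were -0.70 ± 0.18 and -0.88 ± 0.24 with all libraries, and -0.44 ± 0.15 and -0.56 ± 0.18 without the outlying ones.

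The interferon-stimulated response element, bound by STAT and IRF factors, was searched as GAAA, any 2 bases and GAAA again, on both strands of the same 250 bases. It was found in 11 of the 22 type I genes with a promoter and in 9 of 21 interferon gamma genes (42.9%), against 2.84% of all tested genes with one. Isg15, Ifit1, Rsad2 and Ifit3b are printed because they are the type I genes described here. Capitals mark matches, overlapping ones merged, and TTTC marks the motif read on the other strand; each window is 5′ to 3′ in the direction of the gene, which is the minus strand for Isg15 and Rsad2.
Isg15 (chr4:156200845-156200926): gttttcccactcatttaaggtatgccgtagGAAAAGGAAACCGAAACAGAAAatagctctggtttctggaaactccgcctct
Ifit1 (chr19:34640755-34640843): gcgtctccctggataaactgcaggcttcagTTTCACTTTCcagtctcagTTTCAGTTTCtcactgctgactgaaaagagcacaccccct
Rsad2 (chr12:26456533-26456602): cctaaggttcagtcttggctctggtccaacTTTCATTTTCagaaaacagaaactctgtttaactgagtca
Ifit3b (chr19:34607739-34607842): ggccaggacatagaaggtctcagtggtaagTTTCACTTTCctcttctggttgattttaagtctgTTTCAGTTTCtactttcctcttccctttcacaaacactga
Isg15, a ubiquitin-like modifier with 3 matches, averaged -0.34 ± 0.22 (limma adjusted p = 0.41). Ifit3b, whose reads may be shared with its near-identical neighbour Ifit3, averaged -0.67 ± 0.19.

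Of 29 genes of the interferon gamma response and antigen presentation, 22 lay above 0 on average (median 0.19), 20 with quantile normalization and 21 with library medians set equal. Without the outlying libraries 18 did, with a median of 0.03. At 0 Gy 10 of 29 lay above 0 (median -0.08), and at 4 Gy 20 (median 0.18). At 8 Gy 26 of 29 lay above 0 (median 0.34), where the median over all genes was itself 0.10 and 65.5% of genes lay above 0. At that dose the median of all genes was -0.01 with quantile normalization and -0.02 with library medians set equal. Cxcl9, an attractant of T cells bearing CXCR3, held 215, 339 and 275 CPM with IgG and 501, 706 and 381 CPM with anti-PD-1 at 8 Gy and overlapped at the other doses. Its averaged difference was 0.34 ± 0.29 (limma adjusted p = 0.536), and 0.00 ± 0.28 without the outlying libraries.

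**Figure D4:**
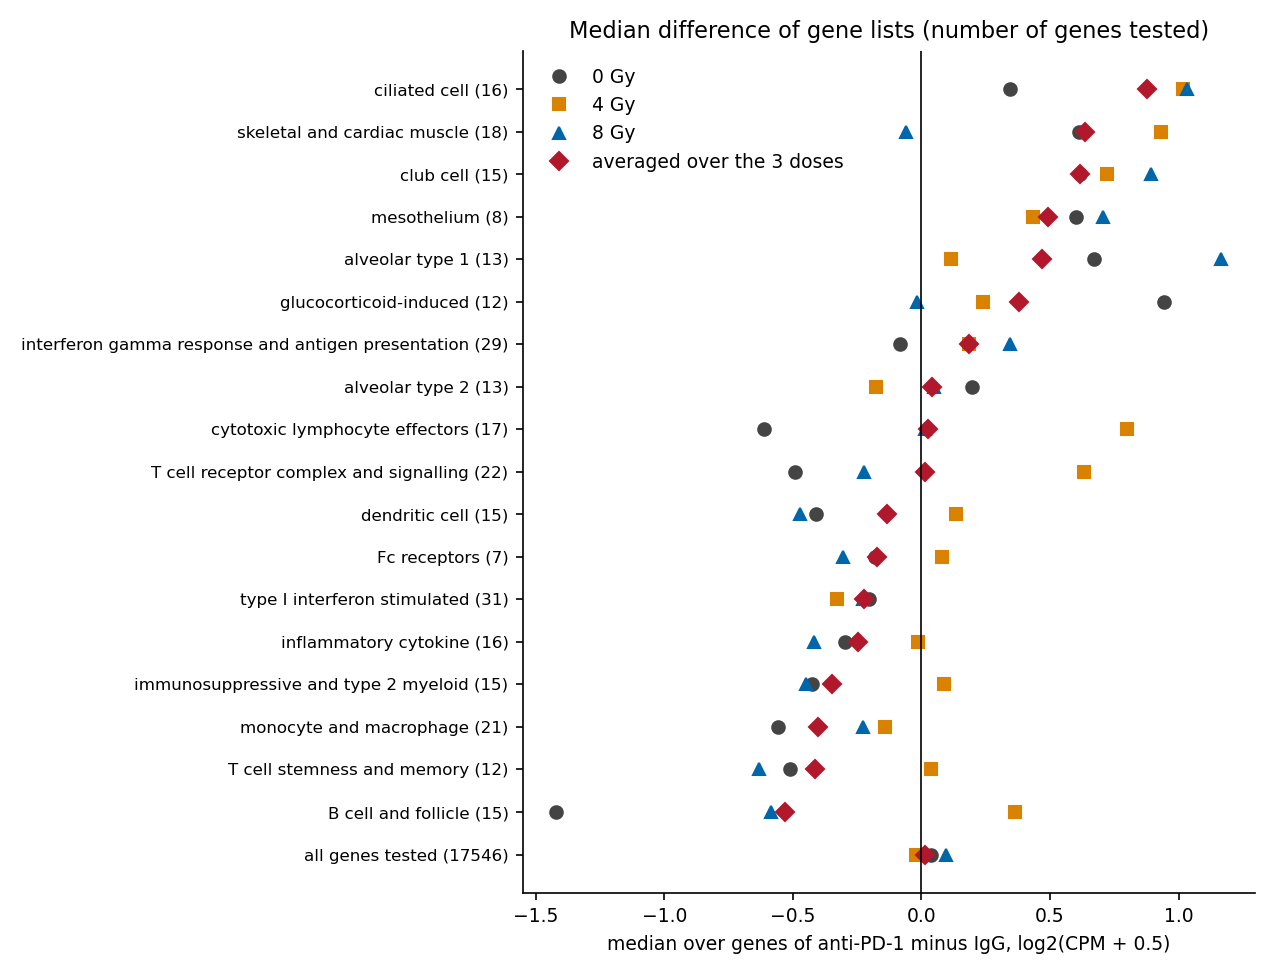
Median over genes of anti-PD-1 minus IgG, in log2(CPM + 0.5), for 18 gene lists and for all tested genes; diamonds are the averaged difference and circles, squares and triangles the differences at 0, 4 and 8 Gy. Ciliated, club cell, alveolar type 1 and mesothelium medians lie above 0 at every dose. Several lists, the B cell and T cell receptor lists included, are above 0 at 4 Gy alone among the doses. The glucocorticoid list is highest at 0 Gy.

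Glucocorticoid-induced genes and muscle genes lay mostly above IgG at 0 Gy (11 of 12 and 14 of 18) and 4 Gy (9 of 12 and 18 of 18). At 8 Gy 6 of 12 and 7 of 18 did. Of 12 glucocorticoid-induced genes 11 lay above 0 on average (median 0.38), with medians of 0.94, 0.24 and -0.02 at 0, 4 and 8 Gy. Zbtb16, a zinc finger factor that steroids induce, was called at 0 Gy, with 1.88, 1.18 and 4.52 CPM under IgG and 14.8 and 22.5 CPM under anti-PD-1 (2.79 ± 0.40, limma adjusted p = 0.0144). Fkbp5, a cochaperone of the steroid receptor, held 96.5, 138 and 106 CPM against 215 and 255 CPM there and was called as well (limma adjusted p = 0.0214). Of all tested genes, 0.12% were called higher at 0 Gy. At 8 Gy the differences were -0.54 ± 0.36 and 0.09 ± 0.15. Pdk4 and Cebpd, which respond to steroids and to fasting or inflammation, averaged 0.81 ± 0.23 and 0.68 ± 0.13.

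Of 18 genes of skeletal and heart muscle 17 lay above 0 on average (median 0.64), with medians of 0.61, 0.93 and -0.06 at 0, 4 and 8 Gy. Tcap, titin cap of striated muscle, is 1 of the 29 genes that rose (1.09 ± 0.19), and Actn3, alpha-actinin of fast muscle fibres, is another (0.89 ± 0.16). Both stood low, Tcap at 0.151 to 1.14 CPM in the IgG libraries and 0.345 to 4.85 CPM in the anti-PD-1 libraries. Acta1, skeletal actin, held 2.25, 1.37 and 2.67 CPM with IgG and 12.8 and 12.7 CPM with anti-PD-1 at 0 Gy, and Mb, myoglobin, 0.980, 0.331 and 0.512 CPM against 5.53 and 4.53 CPM. The mean level of this list was higher in both anti-PD-1 pools at 0 Gy (1.83 and 2.14) than in the IgG pools (1.16, 0.67 and 1.55). It was higher at 4 Gy as well, with 1.40, 2.00 and 1.92 in the anti-PD-1 pools against 0.81 and 0.615 in the IgG pools. The monocyte and macrophage list had medians of -0.56 at 0 Gy and -0.14 at 4 Gy. The part of the muscle levels in these differences was not tested.

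The number of genes called differed between the doses, which is no test of whether the antibody difference did. Tested by dose, 48 genes were called at 0 Gy (0.274%), 21 higher (0.12%) and 27 lower (0.154%), and 1878 (10.7%) stood at an unadjusted p under 0.05. At 4 Gy 2714 were called (15.5%), 1210 higher (6.9%) and 1504 lower (8.57%), and 6456 (36.8%) stood at an unadjusted p under 0.05. At 8 Gy 1 was called (0.0057%), with 2185 (12.5%) at an unadjusted p under 0.05. With either outlying library left out, 0 genes were called at 4 Gy. Leaving out both of them, or either IgG library of that dose, leaves 1 library in a group. Lost calls there cannot be assigned to the libraries left out. Across the 17546 genes the differences at 0 and 8 Gy had a Pearson r of 0.45, those at 0 and 4 Gy -0.26 and those at 4 and 8 Gy 0.10. Genes share libraries and are not independent, so these describe the table. Only 26.7% of genes had the same sign at all 3 doses.

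An F test of the difference over the 3 doses (limma, 2 degrees of freedom) called 0 genes, with 4863 (27.7%) at an unadjusted p under 0.05 and a lowest adjusted p of 0.060. The single interaction term of 4 against 0 Gy called 1593 genes (9.08%), and those of 8 against 0 Gy and 8 against 4 Gy called 0, with 598 (3.41%) and 4801 (27.4%) at an unadjusted p under 0.05. Without both outlying libraries the first of these called 0. Averaging the differences at 0 and 8 Gy alone called 215 genes, 85 higher and 130 lower, and 28 of the 41 were among them. Cdkn1a, the p53 target that halts the cell cycle, had opposite signs after the 2 radiation doses: its differences were 0.11 ± 0.19 at 0 Gy, 0.73 ± 0.19 at 4 Gy and -0.53 ± 0.17 at 8 Gy. It averaged 0.10 ± 0.10 (limma adjusted p = 0.609) and was called higher at 4 Gy (limma adjusted p = 0.0333), where 6.9% of all genes were. Mki67, the marker of dividing cells, had 0.13 ± 0.16, -0.26 ± 0.16 and 0.41 ± 0.15 at those doses.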

How the data were processed

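RNA of 16 pools of mouse lung was sequenced. Per the labels' protocols, RNA was extracted with an RNeasy plus kit and libraries were made with a TruSeq RNA kit. The deposited table holds CPM values of 30095 genes, made by the authors with STAR and Partek on mm10, per the submitters' processing notes; the sources used here give no versions. A constant of 0.0001 stands on every CPM value in the deposited table. No source used here says whether counting used the strand, so reads of overlapping genes on opposite strands cannot be told apart.

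From there, log2(CPM + 0.5) was taken and 17546 genes were kept that reached 1 CPM in 2 or more libraries. limma 3.58.1 (R 4.3.3; trend and robust empirical Bayes) fitted 6 group means, with 10 residual degrees of freedom, and Benjamini-Hochberg adjustment ran over all tested genes. The averaged difference is the mean of the 3 within-dose differences. The fit was run on simulated data of independent genes without outlying libraries. That run does not show how the fit behaves with the outlying libraries seen here. 20 single genes were also tested by exact permutation within doses.

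Groups came from the titles. Replicate numbers are shared across groups, but the deviations of same-numbered libraries correlated between -0.254 and 0.357, so the numbers were not taken as pairs. The comparison and the 48 gene lists were chosen with earlier results of these data known, and lists were described by counts and medians, with no set test. Named genes were the called genes with the largest differences or the lowest p in each direction. These had a mean log2 level of at least 1, the same sign at every dose and an informative symbol. Added were, for each list, as many as 4 genes of lowest p, and a fixed set around PD-1, T cells, interferon and lung cells. Ly6c1, Rab3il1, Egr2, Srsf5, D330041H03Rik, Tcap, Actn3 and the printed promoters' genes outside that rule were chosen after their values were seen.

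Alternatives were quantile normalization, equal library medians, other filters and pseudocounts, a replicate block, array weights, plain empirical Bayes, an additive model, fits within a dose, and leaving out libraries. The count of list members above 0, the mean of 0 and 8 Gy for lists and the 4 against 0 Gy term under these settings were added after seeing the data. Promoter sequences are from RefSeq (GRCm38.p6), and 11848 of the tested genes matched by symbol.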

Additional observations from a re-analysis of the deposited data

Results flagged for a closer look

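The antibody difference at 4 Gy differed from that at 0 Gy in 1593 genes by limma's interaction term. Without both outlying anti-PD-1 libraries at 4 Gy, 0 of them were called (2532 genes at an unadjusted p under 0.05), and fits that left out 1 library called between 0 and 4824. Of the 90 genes examined one by one, 15 passed this test, against 9.08% of all tested genes. Many of the 90 were chosen for a low p in these same libraries, so this count is a description. The values of the 15 below are the difference at 4 Gy minus that at 0 Gy in log2(CPM + 0.5).

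Of the genes that passed, 5 that fell on average or are macrophage genes lay below IgG at 0 Gy. At 4 Gy Ptgir (-0.09) and Csf2rb2 (-0.13) lay nearer to IgG, and Egr2 (0.25), Rab3il1 (0.17) and Csf1r (0.20) lay above it. The interaction values were 1.66 for Ptgir, 1.03 for Csf2rb2, 1.79 for Egr2, 1.34 for Rab3il1 and 1.17 for Csf1r. The ligand gene Cd274 had 1.15 and the B cell gene Cd22 had 1.78. Among the genes that rose on average, Polr3gl, a subunit of RNA polymerase III, had 1.21 and Cuedc1 had 1.00.

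Other genes lay above IgG at 0 Gy and had a lower difference at 4 Gy. At 4 Gy Zbtb16 (0.60) and Gm27252 (0.42) still lay above IgG. Fkbp5 (-0.16), Aldh1a1 (-0.61), Pdpn (-0.29) and Ly6c1 (-0.06) lay below it at that dose. The interaction values of Zbtb16 and Fkbp5, both induced by glucocorticoids, were -2.19 and -1.22. Aldh1a1 had -1.78, Pdpn, a surface protein of alveolar type 1 cells, -1.10, Ly6c1 -1.53 and the unnamed transcript Gm27252 -1.39. Groups of 2 or 3 libraries are too small for the check of single outlying values used for larger groups.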

How the results depend on the processing

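The 41 genes called on average were selected in these same libraries, so their direction under the alternatives is a description. All kept it in every alternative in which they were tested (38 of them under the filter of 1 CPM in at least 8 libraries), but the count of calls did not hold. It was 9 with the replicate block, 0 without anti-PD-1 4 Gy replicates 2 and 3, 0 in the additive model of dose and antibody, 2808 with array weights, 215 over 0 and 8 Gy alone, and 0 to 1316 when 1 library was left out. At 0 Gy the 48 calls became 97 with no filter, 30 with the replicate block, 509 with array weights, 27 with plain empirical Bayes, 0 with the libraries of 0 Gy alone, and 0 to 95 without 1 library. At 4 Gy the 2714 became 1503 with no filter, 0 with the replicate block, 0 without the outlying pair, 7221 with array weights, 1497 with the libraries of 4 Gy alone, and 0 to 5678 without 1 library. At 8 Gy the 1 call became 8 with quantile normalization, 13 with equal medians, 0 with no filter, 6 with pseudocount 1, 0 without the outlying pair, 2195 with array weights, 5 with plain empirical Bayes, 26 with the libraries of 8 Gy alone, and 0 to 95 without 1 library. The F test over doses called 411 with quantile normalization, 82 with equal medians, 1 with no filter, 1 with the replicate block, 6772 with array weights, and 0 to 3358 without 1 library. The cause of these changes was not tested. The default array weights did not converge, so the gene-by-gene method was used. The replicate numbers are not taken as pairs, so calls lost under the block are not read as a weaker effect.

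Of 2514 values of the 90 genes under alternatives, 1742 kept their direction and side of the threshold, 653 lost the threshold, 109 gained it and 10 changed sign. Gzmb was 0.0545 with array weights and ran from -0.18 to 0.10 without 1 library. Cd8a was -0.0852 without the outlying pair and -0.18 over 0 and 8 Gy, and ran from -0.11 to 0.25 without 1 library. Cdkn1a was -0.21 over 0 and 8 Gy. With 1 library left out of a group of 2, or the outlying pair left out, the lone library of that group was assumed to vary like the other groups. With 2 or 3 pools in a group, a difference could go uncalled even where it was larger than the spread between pools.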

Other observations

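Of 20 lung endothelium genes 16 lay above 0 on average (median 0.18), with medians of 0.28, 0.52 and -0.06 at 0, 4 and 8 Gy. Of 19 fibroblast and matrix genes 14 did (median 0.16), with medians of 0.45, -0.25 and 0.48 at those doses. In these lists 15% and 15.8% of genes were higher at an unadjusted p under 0.05, against 13.5% of all genes. Of 8 genes of classical complement 5 lay above 0 (median 0.47), 4 of them at an unadjusted p under 0.05. Of 15 circadian clock genes 12 did (median 0.28). Of 24 mitosis genes 22, 6 and 24 lay above 0 at 0, 4 and 8 Gy, with medians of 0.22, -0.23 and 0.18. Of 17 neutrophil genes 12 lay above 0 on average, with medians of 0.66, 0.34 and -0.10 by dose.

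Red blood cell genes had medians of -1.16, 1.06 and -0.58 at 0, 4 and 8 Gy over 8 genes. The 13 mitochondrially encoded genes had medians of 0.45, -0.33 and -0.89. Alveolar macrophage genes had medians of -0.30, 0.43 and -0.42 over 14 genes, with 7 above 0 on average.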
